A study of Mus musculus with 20 samples.

Results

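Mouse blastocysts were set against mouse oocytes, the last and the first of 5 stages of preimplantation development that were profiled on Affymetrix MOE430A arrays. The comparison used the 4 arrays titled Blastocyst 1 to 4 and the 4 arrays titled Oocyte 1 to 4, which are 8 of the 20 arrays of the series, and every probe set that is not an Affymetrix control. The other 12 arrays hold 1-cell, 2-cell and 8-cell embryos, again 4 per stage. They helped to estimate the spread and to set the added constant and the intensity filter used below. They also show the course between both ends. Both groups were labelled as mouse material from preimplantation development, and total RNA of both went through repeated rounds of in vitro transcription to yield enough for the arrays. Genotype, strain, treatment, age, the maturation state of the oocytes and the number of oocytes or embryos behind each array are not stated in these labels. Nor do the labels say that the 4 arrays of a stage came from separate collections, so all p-values reflect the spread among these arrays alone, which may be technical.

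A full-grown oocyte is transcriptionally silent and lives on messenger RNA that it made and stored while it grew. Much of this maternal RNA is removed during maturation and the early cleavages, while the embryonic genome is switched on. By the blastocyst stage the embryo has formed its first epithelium, the trophectoderm, which pumps fluid into the blastocoel cavity, and an inner cell mass that contains the precursors of the epiblast and of the primitive endoderm.

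Each value is a linear probe-set intensity on an array that the authors scaled to a common trimmed mean, so differences are relative to the bulk of the transcripts on the array and not amounts per embryo. In whole blastocysts, fewer cells of a type and less RNA per cell cannot be told apart. Differences are given as blastocyst minus oocyte on log2(intensity + 12.15), with the moderated standard error of limma. Adding the constant understates the change of dim transcripts. A probe set was called where limma's two-sided test gave a p under 0.05 after Benjamini-Hochberg adjustment. It was termed steady where limma's tests placed the difference within 2-fold in either direction, again at an adjusted p under 0.05, and where both stage means exceeded an intensity of 33. A probe set can be both called and steady, since a small difference can be well measured.

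The arrays of a stage resembled each other more than those of the other stage. Pairwise correlations of log2 values were 0.955 to 0.971 among blastocyst arrays and 0.961 to 0.969 among oocyte arrays, against 0.569 to 0.611 between the stages, and 0 of 28 pairs of arrays held identical values. Median intensity was 43.1 ± 5.48 on blastocyst arrays and 46.1 ± 6.53 on oocyte arrays (SD, n = 4 each). The ratio of 3′ to 5′ signal of the beta-actin control probe sets, a sign of RNA or copy length, was 1.99 ± 0.325 on blastocyst arrays and 4.74 ± 0.364 on oocyte arrays (exact permutation test, two-sided p = 0.0286, the smallest that 4 against 4 arrays allow). The same ratio for Gapdh was 5.81 ± 1.96 on blastocyst arrays and 4.70 ± 1.26 on oocyte arrays (exact permutation test, p = 0.314). The part of copy length in the differences below was not tested. Most marker genes of the labelled stages were higher in the stage they mark. They were chosen with earlier results of these data known, so they are not an independent check of the labels. All 8 oocyte markers of the fixed set (Zp1, Zp2, Zp3, Gdf9, Bmp15, Mos, H1f8 and Nlrp5) were lower in the blastocyst, and all 6 trophectoderm markers (Cdx2, Eomes, Gata3, Krt8, Krt18 and Fgfr2) were higher. Of the inner cell mass and primitive endoderm markers, Pou5f1, Sox2, Nanog, Gata6, Pdgfra and Sox17 (in 1 of 2 probe sets) were higher. Gata4 was lower, and so was Fgf4 in its brightest probe set, while another Fgf4 probe set was brighter in the blastocyst. Scaling to the spiked hybridization controls instead of the trimmed mean lowered the median difference over all probe sets by 0.26 on the log2 scale.

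Of 22626 probe sets, 17193 passed the intensity filter (above 33 on at least 4 of the 20 arrays), and 10175 of these, or 59.2%, were called. They divided into 4893 higher in the blastocyst (28.5% of those tested) and 5282 lower (30.7%). Of the called probe sets, 48.1% were thus higher in the blastocyst, against 37.9% of 9732 calls with scaling to the hybridization controls. Higher calls of at least 2-fold made up 20.2% of the tested probe sets and lower ones 19.8%. A further group of 3716 probe sets (21.6%) was steady, and 19.4% were steady without being called. The 4 values of one stage all lay above the 4 of the other in 26.7% of probe sets with the blastocyst above and in 27.8% with the oocyte above. Neither call was made for 21.4% of probe sets, for which the difference could not be placed. With 1 probe set per gene, the brightest, 10251 genes were compared: 26.5% were called higher in the blastocyst, 33.5% lower and 22.5% steady, and the median log2 difference was -0.20. These shares are the background for the gene lists below.

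**Figure D1:**
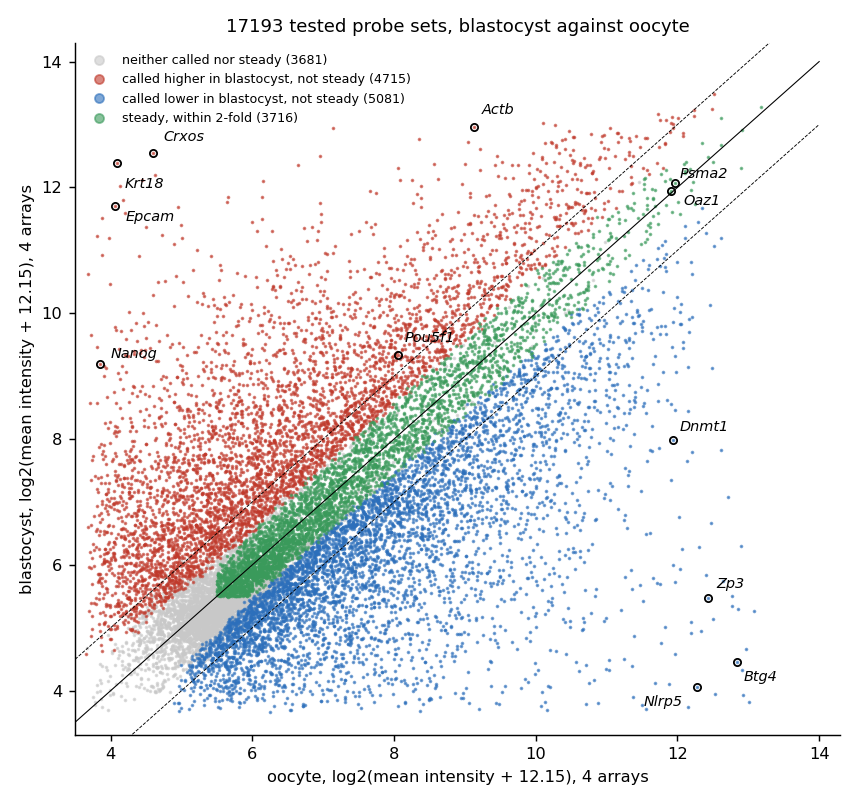
Mean intensity of each tested probe set in the 4 blastocyst arrays (vertical axis) against the 4 oocyte arrays (horizontal axis), both as log2(mean + 12.15). Red points were called higher and blue points lower in the blastocyst, green points were steady, grey points neither. Dashed lines mark 2-fold differences. Green points hug the diagonal, and Krt18 and Btg4 lie in opposite corners.

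At 16-fold or more, 184 genes were lower in the blastocyst (1.79% of genes) and 128 higher (1.25%). The losses did not begin together. Among the 184 genes, the stage mean first dropped under 50% of the oocyte mean for 34 in 1-cell embryos, for 72 in 2-cell embryos and for 78 in 8-cell embryos, and 106 had a 1-cell mean above the oocyte mean. Of the 128 genes that gained, the mean first reached 50% of the blastocyst mean for 28 in 2-cell embryos, for 36 in 8-cell embryos and for 64 only in blastocysts. For 38 of them the 8-cell mean exceeded the blastocyst mean.

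The largest falls included known regulators of egg maturation and of the clearance of maternal RNA. Btg4, an adaptor of the CCR4-NOT deadenylase that removes maternal messenger RNA, had intensities of 3.6, 22.1, 10.6 and 2.9 on the blastocyst arrays, against 6739, 8202, 7091 and 7147 on the oocyte arrays. No blastocyst value came near an oocyte value, and the log2 difference was -8.46 ± 0.23 (SE; limma adjusted p = 3.54e-21). Nlrp5, also called Mater, a member of the subcortical maternal complex, stood at 2.3, 7.2, 5.4 and 3.4 on the blastocyst arrays, against 5666, 4699, 4062 and 5400 on the oocyte arrays. All 4 blastocyst arrays were far under the filter intensity of 33, and the log2 difference was -8.21 ± 0.21. Mos, whose kinase arrests the egg at metaphase of meiosis, had 0.9, 1.2, 2.7 and 1.6 on the blastocyst arrays, against 2838, 3013, 2588 and 3099 on the oocyte arrays. The groups were again far apart, and Mos fell by 7.72 ± 0.42 on the log2 scale. Other falls among the 12 largest were those of Rfpl4 (-7.84), a RING finger protein gene, the homeobox gene Obox2 (-7.82), the G protein regulator Rgs2 (-7.77), the oligoadenylate synthetase family gene Oas1c (-7.59), the BCL2 family gene Bcl2l10 (-7.57), the cochaperone gene Dnajb4 (-7.46), Bpgm (-7.27), which codes for bisphosphoglycerate mutase, and Rspo2 (-7.08), a WNT agonist. Most blastocyst values of these genes were under the filter intensity, so the sizes and order of the falls hold for the constant of 12.15. The probe sets of Obox2 and Bpgm are of a type that can also detect related transcripts.

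The zona pellucida and oocyte-secreted genes fell almost as a group: of 16 tested, 15 were lower in the blastocyst and 1 was higher, with a median log2 difference of -5.12. Zp3, which codes for a glycoprotein of the egg coat, had 31.6, 25.1, 39.0 and 34.2 on the blastocyst arrays, against 5830.4, 4962, 5395 and 5768 on the oocyte arrays. The groups did not overlap, and Zp3 fell by 6.95 ± 0.18 on the log2 scale (limma adjusted p = 7.31e-22). The other coat genes Zp2 and Zp1 had log2 differences of -6.57 and -5.87. Gdf9, a growth factor through which the oocyte acts on its follicle cells, averaged 67.0 ± 12.04 in blastocysts and 7590 ± 709 in oocytes, and its partner Bmp15 averaged 4.62 ± 5.88 in blastocysts and 746 ± 105 in oocytes (SD, n = 4 each). Their log2 differences were -6.59 and -5.54. Oosp1, a gene for an oocyte-secreted protein, fell by 7.27. Its mean at the 1-cell stage was 12218 and at the 2-cell stage 7199, against 134 at the 8-cell stage. Cd9, the surface protein that the egg needs to fuse with sperm, was the gene of this list that rose: it averaged 1226 ± 345 in blastocysts and 234 ± 42.5 in oocytes, a log2 difference of 2.31 ± 0.20.

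Among 25 tested maternal-effect and oocyte-restricted genes, 22 fell, 2 rose and 1 was not called, with a median of -5.45. H1f8, the linker histone of the oocyte, averaged 10.3 ± 8.18 in blastocysts and 2076 ± 215 in oocytes, and was already at 67.0 in 2-cell embryos. Dppa3, also called Stella, which protects the maternal genome from loss of methylation, was an exception in size. It had 2453, 2393, 1664 and 2517 on the blastocyst arrays, against 3326, 3842, 3434 and 3897 on the oocyte arrays. Every blastocyst value was lower than every oocyte value, yet the log2 difference was only -0.70 ± 0.17 (limma adjusted p = 0.000853). Trim28, a corepressor needed to keep imprints, rose by 1.08, and Nlrp4c by 0.75. The call for Nlrp4c was lost without blastocyst array 1, without blastocyst array 3, and under scaling to the hybridization controls. Zfp36l2, which codes for an RNA-binding protein that promotes messenger RNA decay, was the gene not called: it was steady at 165 ± 8.53 in blastocysts and 132 ± 29.0 in oocytes.

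Genes of meiotic arrest and M phase fell more often than they rose. Of 44 tested, 26 fell, 7 rose and 11 were not called, and 14 were steady, 10 of them without a call. The shares over all genes were 33.5% lower, 26.5% higher and 22.5% steady. Beside Mos, the meiotic Aurora kinase gene Aurkc fell by 3.92 and the checkpoint kinase gene Ttk by 3.44. Rises were smaller. The condensin gene Smc2 averaged 459 ± 125 in blastocysts and 125 ± 25.8 in oocytes, and its log2 difference was 1.75. Ube2c and Cdc20, both of which serve the anaphase-promoting complex, rose by 1.35 and 1.05. Cks2, which codes for a small subunit that binds cyclin-dependent kinases, was steady with 4148, 4424, 2833 and 2428 on the blastocyst arrays, against 3551, 4675, 3576 and 4665 on the oocyte arrays. Its groups overlapped, and limma gave a log2 difference of -0.28 ± 0.18. Pttg1, the gene of securin, was steady and called lower (-0.59), but its 3 probe sets ranged from -2.02 to 1.49.

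Genes that store and clear maternal messenger RNA fell more often than they rose. Of 49 tested genes, 26 fell, 9 rose and 14 were not called, and 18 were steady, with a median of -0.48. Of all genes, 33.5% were called lower, 26.5% higher and 22.5% steady. Dazl, a translational activator of germ cells, fell by 5.27, and Cpeb1, which binds the cytoplasmic polyadenylation element, fell by 4.98. Pabpc1, the general cytoplasmic poly(A)-binding protein gene, had 4430, 5017, 4358 and 3921 on the blastocyst arrays, against 390, 178, 246 and 221 on the oocyte arrays. Every blastocyst array was more than 10 times as bright as any oocyte array, and the log2 difference was 4.09 ± 0.20 (limma adjusted p = 5.08e-16). The second probe set of Pabpc1 rose by 0.71. Eif4ebp1, an inhibitor of cap-dependent initiation, rose by 3.87, although its 3 probe sets ranged from 0.20 to 5.48. Cpeb2, a relative of Cpeb1, rose by 2.48. Pabpn1, the nuclear poly(A)-binding protein gene, was steady at 4363 ± 1266 in blastocysts and 3598 ± 363 in oocytes, as were 3 of its 4 probe sets, which ranged from -0.48 to 0.77.

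Enzymes of DNA methylation and histone modification moved both ways. Of 44 tested genes, 17 were higher, 14 lower and 11 steady, beside 26.5%, 33.5% and 22.5% of all genes. The median log2 difference of this list, 0.12, turned to -0.11 under scaling to the hybridization controls. Dnmt1, the maintenance methyltransferase gene, had 226, 298, 231 and 204 on the blastocyst arrays, against 3998, 3318, 3715 and 4576 on the oocyte arrays. The groups were well apart and Dnmt1 fell by 3.96 ± 0.18. Dnmt3b, a de novo methyltransferase gene, had 1551, 1927, 1161 and 1953 on the blastocyst arrays, against 246, 133, 168 and 170 on the oocyte arrays. Here all blastocyst arrays were the brighter ones, and the log2 difference was 3.12 ± 0.19. The acetyltransferase gene Kat2b rose by 4.07 and the deacetylase gene Hdac1 by 2.43. The Polycomb gene Bmi1 fell by 2.99 and the H3K9 methyltransferase gene Suv39h2 by 2.61, whereas the Polycomb genes Suz12 (-0.18) and Rnf2 (-0.23) were steady in their brightest probe sets, but only in 3 of 6 for Suz12, which ranged from -0.96 to 0.53, and in 1 of 2 for Rnf2, whose other one was at -0.80. Among 16 linker histone and histone variant genes, 6 rose and 5 fell. H2az1, an H2A variant gene, rose by 3.04 and Macroh2a1, the gene of a larger H2A variant, by 3.45, while the histone chaperone genes Asf1a and Asf1b fell by 1.85 and 1.67. The median of this list, 0.12, was -0.15 with the hybridization controls.

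**Figure D2:**
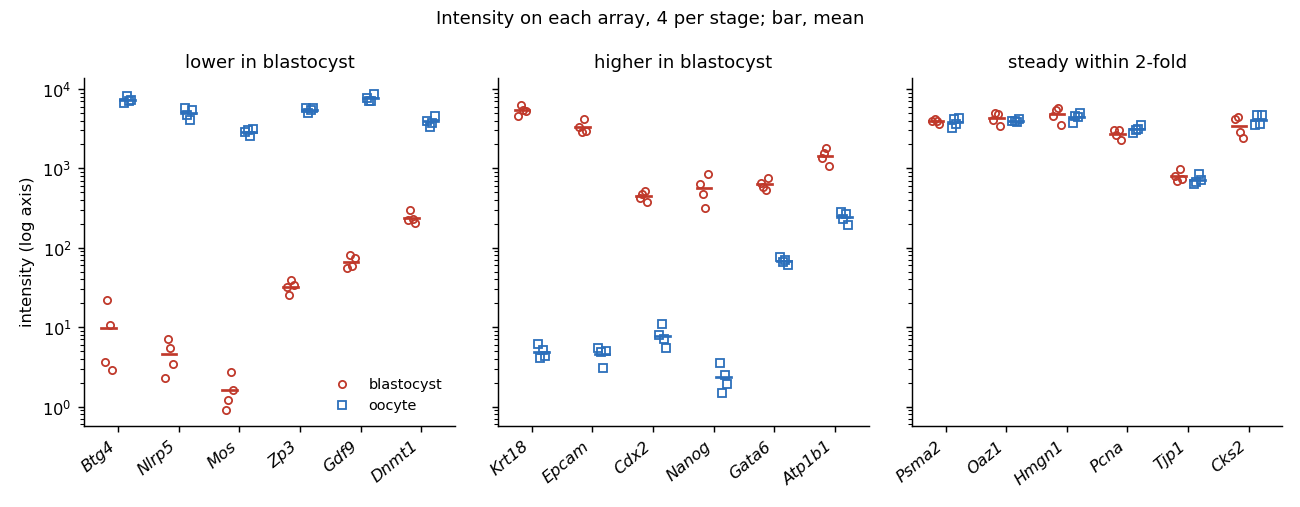
Intensity on each of the 4 blastocyst arrays (red circles) and 4 oocyte arrays (blue squares), on a log axis, for 6 genes that fell, 6 that rose and 6 that were steady. Bars are means. The stages are fully apart for the 12 changed genes and overlap for each of the 6 steady genes.

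Trophectoderm markers rose most often among the lineage lists: 32 of 37 tested genes were higher in the blastocyst, 3 were lower and 2 were not called, with a median of 2.72. A gene that is dim at most stages passes the filter only where it is bright, which favours members that differ. Krt18, a keratin of simple epithelia, had 4573, 6242, 5362 and 5206 on the blastocyst arrays, against 6.2, 4.1, 5.1 and 4.3 on the oocyte arrays. All oocyte values were under the filter intensity, and the log2 difference of 8.29 ± 0.23 was the largest rise among the genes named by rule, an order that holds for the constant of 12.15 (limma adjusted p = 3.14e-21). Its partner Krt8 rose by 5.98. Cdx2, the transcription factor that specifies trophectoderm, had 428, 474, 516 and 379 on the blastocyst arrays, against 7.9, 10.9, 7.1 and 5.5 on the oocyte arrays. The stages did not overlap, and Cdx2 rose by 4.53 ± 0.33. Eomes and Gata3, further trophectoderm regulators, rose by 3.64 and 1.93, and the FGF receptor gene Fgfr2 by 1.24. The galectin gene Lgals1, the fatty acid binding protein gene Fabp3 and the tetraspanin gene Tspan8 rose by 7.76, 6.73 and 6.40. The second probe set of Lgals1 rose by 5.57, and the 4 of Tspan8 ranged from 2.46 to 6.40. The falls were those of the lysosomal protease gene Ctsh (-4.68) and the transcriptional coregulator gene Cited2 (-2.49), and a smaller one in Ets2 (-0.48), which is named here because it completes the count. The call for Ets2 was lost without oocyte array 1 or 2, without blastocyst array 1, 3 or 4, and with quantile normalization or median centring.

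Of 33 inner cell mass and pluripotency markers, 20 rose, 4 fell and 9 were not called, with a median of 1.29. Nanog, a transcription factor of the epiblast lineage, had 636, 473, 320 and 857 on the blastocyst arrays, against 3.5, 1.5, 2.5 and 1.9 on the oocyte arrays. Its blastocyst values spread widely, but none approached an oocyte value, and the log2 difference was 5.24 ± 0.28. Sox2 averaged 232 ± 25.5 in blastocysts and 15.4 ± 2.45 in oocytes and rose by 3.15. Pou5f1, the gene of Oct4, had 653, 507, 644 and 740 on the blastocyst arrays, against 220, 230, 261 and 302 on the oocyte arrays. The groups did not overlap, but the rise of 1.29 ± 0.19 was far smaller than that of Nanog, and Pou5f1 lay well above the filter intensity on every oocyte array. The NODAL coreceptor gene Tdgf1 rose by 5.86 and the transcription factor gene Tfcp2l1 by 5.32. Fgf4, which signals from inner cell mass to its neighbours, was called lower in its brightest probe set (-0.72), with overlapping groups, but its 3 probe sets ranged up to 2.93. Sall4, a zinc finger gene, fell by 0.54, a call that was lost when blastocyst array 1 or 4, or oocyte array 1 or 3, was left out and when arrays were centred on their medians.

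Primitive endoderm and basement membrane genes rose in 20 of 36 cases, fell in 6 and were not called in 10. Gata6, an early regulator of this lineage, had 653, 583, 538 and 745 on the blastocyst arrays, against 77.1, 65.6, 69.7 and 60.3 on the oocyte arrays. The groups lay well apart, and Gata6 rose by 2.99 ± 0.18. The PDGF receptor gene Pdgfra rose by 4.00, the endocytic receptor gene Lrp2 by 5.12 and the basement membrane gene Nid1 by 4.23. Gata4, a later regulator, averaged 50.6 ± 9.84 in blastocysts and 85.0 ± 12.7 in oocytes and was called lower (-0.64), both means being close to the filter intensity. Lamb1, a laminin chain gene, fell by 2.47, the proteoglycan core gene Srgn by 2.90 and the collagen hydroxylase gene P4ha1 by 2.07. P4hb, which codes for a partner of P4ha1, was steady at 1630 ± 132 in blastocysts and 1323 ± 195 in oocytes.

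Epithelial junction and polarity genes followed, with 27 of 46 higher, 8 lower and 11 steady, and a median of 1.15. Epcam, an epithelial adhesion gene, had 3281, 2847, 4217 and 2988 on the blastocyst arrays, against 5.4, 4.9, 3.1 and 5.0 on the oocyte arrays. Oocyte values were all near 0 on this scale, and Epcam rose by 7.63 ± 0.20. The tight junction genes Cldn7 and F11r rose by 4.57 and 4.45. Cdh1, the gene of E-cadherin, which compacts the embryo, was present in both stages at 995 ± 167 in blastocysts and 588 ± 91.3 in oocytes, and its rise of 0.74 was not called with scaling to the hybridization controls. Tjp1, the scaffold gene ZO-1, was steady with 792, 691, 976 and 726 on the blastocyst arrays, against 642, 666, 842 and 722 on the oocyte arrays. The ranges overlapped, and the log2 difference was 0.14 ± 0.17. Ctnnb1, the gene of beta-catenin, was both steady and called lower (-0.40), with every oocyte value above the blastocyst values, and its second probe set, at -0.61, was called lower and not steady. The first call was lost without any 1 of the 4 oocyte arrays or blastocyst array 3 or 4. In the Hippo and polarity pathways 3 genes fell by at least 2-fold: the coactivator gene Yap1 by 2.09, Pard6a by 1.70 and the kinase gene Lats1 by 1.00. A second probe set of Yap1 was steady at 0.11.

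The pump, water channel and nutrient transporter list had 18 of 36 genes higher, 4 lower and 14 not called. Atp1b1, a beta subunit gene of the sodium pump that drives blastocoel filling, had 1330, 1574, 1783 and 1081 on the blastocyst arrays, against 285, 232, 268 and 191 on the oocyte arrays. The groups did not overlap, and the rise was 2.50 ± 0.19, with 4 of 5 probe sets called higher. The water channel gene Aqp3 rose by 3.27, the amino acid transporter gene Slc38a4 by 5.60 and the monocarboxylate transporter gene Slc16a1 by 4.06. Slc2a3, a high-affinity glucose transporter gene, rose by 6.21, in 2 of 3 probe sets. Slc6a9, the glycine transporter through which oocytes and early embryos control their volume, averaged 40.9 ± 39.6 in blastocysts and 441 ± 122 in oocytes, and fell by 3.31. Slc7a2, a cationic amino acid transporter gene, fell by 1.54, and Slc3a2, a shared transporter heavy chain, was steady (0.12).

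The other rises among the 12 largest were those of the homeobox gene Crxos (7.99), the autophagy receptor gene Calcoco2 (7.53), the leucine-rich repeat genes Pramel6 (7.40) and Pramel7 (7.22), the betaine-homocysteine methyltransferase gene Bhmt (6.87) and the aminopeptidase gene Enpep (6.21). Both Pramel genes were in the 2-cell list, and Pramel7 also in the pluripotency list, and their probe sets can detect related transcripts. Second probe sets rose less, by 3.40 for Crxos, 3.93 for Pramel6 and 4.02 for Pramel7. In 5 of these 6 genes the 8-cell mean was above the blastocyst mean, a difference that was not tested. Bhmt averaged 2644 ± 912 in blastocysts and 10.5 ± 6.93 in oocytes, but 8533 in 8-cell embryos, and Crxos averaged 5951 ± 835 in blastocysts and 12.1 ± 7.18 in oocytes, but 10879 in 8-cell embryos. Enpep and Tspan8 were still at 78.2 and 22.2 in 8-cell embryos, against 2344 ± 342 and 2697 ± 439 in blastocysts.

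The 250 bases before the start of 8 genes are shown, so that genes from the 3 classes can be compared: Btg4, Zp3 and Oosp1 fell, Krt18, Krt8 and Epcam rose, and Psma2 and Oaz1 were steady. They are RefSeq promoters of mouse build GRCm38.p6, written 5′ to 3′ on the gene's strand, with each E-box, CANNTG, in capitals. The E-box is the site of basic helix-loop-helix factors, and Figla, a known activator of zona genes in the mouse oocyte, is one of these.
Btg4 (chr9:51115751-51116000, plus strand): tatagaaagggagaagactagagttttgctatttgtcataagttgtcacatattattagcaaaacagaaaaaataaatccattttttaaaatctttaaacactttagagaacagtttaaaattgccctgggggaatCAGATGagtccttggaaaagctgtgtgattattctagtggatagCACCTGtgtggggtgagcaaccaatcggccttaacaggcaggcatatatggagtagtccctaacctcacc
Zp3 (chr5:135979855-135980104, plus strand): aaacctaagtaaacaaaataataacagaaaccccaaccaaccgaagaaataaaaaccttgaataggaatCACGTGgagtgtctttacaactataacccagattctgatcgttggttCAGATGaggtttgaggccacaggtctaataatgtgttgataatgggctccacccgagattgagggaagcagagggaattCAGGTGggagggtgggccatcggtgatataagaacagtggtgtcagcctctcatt
Oosp1 (chr19:11691052-11691301, minus strand): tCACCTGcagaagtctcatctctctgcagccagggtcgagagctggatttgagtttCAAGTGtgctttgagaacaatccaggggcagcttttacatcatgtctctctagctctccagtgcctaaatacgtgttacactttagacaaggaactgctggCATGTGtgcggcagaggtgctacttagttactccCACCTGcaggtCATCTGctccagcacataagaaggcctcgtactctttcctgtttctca
Krt18 (chr15:102027966-102028215, plus strand): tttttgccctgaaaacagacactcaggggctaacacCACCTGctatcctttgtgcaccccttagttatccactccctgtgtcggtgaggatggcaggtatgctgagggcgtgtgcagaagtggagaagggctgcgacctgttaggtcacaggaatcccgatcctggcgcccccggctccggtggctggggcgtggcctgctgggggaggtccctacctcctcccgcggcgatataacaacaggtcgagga
Krt8 (chr15:102004343-102004592, minus strand): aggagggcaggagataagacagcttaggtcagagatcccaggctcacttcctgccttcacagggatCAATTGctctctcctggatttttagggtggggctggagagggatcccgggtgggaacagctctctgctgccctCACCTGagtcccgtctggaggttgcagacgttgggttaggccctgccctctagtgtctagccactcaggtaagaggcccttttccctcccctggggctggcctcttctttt
Epcam (chr17:87635729-87635978, plus strand): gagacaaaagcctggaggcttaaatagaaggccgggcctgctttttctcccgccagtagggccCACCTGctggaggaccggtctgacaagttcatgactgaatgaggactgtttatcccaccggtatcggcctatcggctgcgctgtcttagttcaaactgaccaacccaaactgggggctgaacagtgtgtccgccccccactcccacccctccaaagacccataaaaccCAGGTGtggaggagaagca
Psma2 (chr13:14612992-14613241, plus strand): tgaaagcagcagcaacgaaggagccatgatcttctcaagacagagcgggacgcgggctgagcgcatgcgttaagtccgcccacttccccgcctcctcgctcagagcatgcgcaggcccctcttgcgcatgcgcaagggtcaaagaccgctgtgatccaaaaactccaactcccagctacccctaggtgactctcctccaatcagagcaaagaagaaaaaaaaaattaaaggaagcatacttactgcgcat
Oaz1 (chr10:80826406-80826655, plus strand): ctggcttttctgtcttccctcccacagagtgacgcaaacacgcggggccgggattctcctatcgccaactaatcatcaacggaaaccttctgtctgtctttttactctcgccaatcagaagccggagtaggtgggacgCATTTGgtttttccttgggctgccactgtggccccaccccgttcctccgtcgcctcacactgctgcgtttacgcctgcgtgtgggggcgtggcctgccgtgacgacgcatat
Zp3 holds 3 matches, Oosp1 5 and Btg4 2, the 3 genes that rose hold between 1 and 2, and of the steady genes Oaz1 holds 1 and Psma2 holds 0, so the letters occur in all 3 classes. The pattern reads alike on both strands. It was searched, together with 12 other motifs, in windows of 300 bases, from 250 before to 50 after the start. It was found in 62.8% of 1562 promoters of genes higher by at least 2-fold, in 65.3% of 1820 lower by at least 2-fold, in 62.9% of 1670 steady and not called, and in 64.3% of all 8275 tested genes with a promoter, against 72.2% of all 27025 promoters. Among genes higher by at least 16-fold the share was larger, at 79.8% of 109 promoters, a difference that was not tested. The letters TAATTG, a homeobox site that Nobox can bind in the mouse oocyte, searched on both strands, were in 3.46% of the higher, 5.93% of the lower, 5.27% of the steady and 4.92% of all tested genes. Median GC content was 61.0% for the higher, 60.7% for the lower and 60.3% for the steady genes. For the genes lower by at least 16-fold only 76.1% had a promoter in the table, so their share, 70.7%, is not compared. Neither pattern contains the other, and a match is a description of letters, not a site in use.

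The protein-making machinery rose broadly, though with fewer calls of a rise under scaling to the hybridization controls. Of 45 tested cytosolic ribosomal protein genes, 41 were higher in the blastocyst, and of the other 4, which were not called, 3 were steady, with a median of 1.77. Rpl22 averaged 3452 ± 1327 in blastocysts and 295 ± 51.3 in oocytes and rose by 3.42, the largest rise of the list. Rps25 and Rpl14 rose by 3.13 and 3.07. Rpl35, by contrast, had 4853, 4490, 3061 and 3403 on the blastocyst arrays, against 3471, 2665, 2640 and 4387 on the oocyte arrays. The ranges overlapped, and all 6 of its probe sets were steady. The list did not climb evenly: its median against the oocyte was -2.09 in 1-cell embryos, 0.22 in 2-cell embryos, 2.22 in 8-cell embryos and 1.77 in blastocysts. Among 61 ribosome biogenesis genes, 28 rose, 16 fell and 19 were steady, and with the hybridization controls 20 rose and 16 fell. The RNA polymerase subunit gene Polr1c rose by 3.40, the nucleolar genes Nop16 and Fbl by 3.02 and 2.84, and the ribosome assembly genes Bms1 and Utp4 fell by 2.11 and 2.09.

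Translation factors had 24 of 38 genes higher, 9 lower and 9 steady, and 18 higher and 9 lower with the hybridization controls. The elongation factor gene Eef2 averaged 2078 ± 243 in blastocysts and 360 ± 65.0 in oocytes, and its log2 difference was 2.50 ± 0.23. Eef2k, the kinase that inhibits that factor, went the other way, with 46.7 ± 16.7 in blastocysts and 569 ± 42.0 in oocytes and a log2 difference of -3.34 ± 0.26. The initiation factor gene Eif1a rose by 2.68 and Eif1b fell by 3.21. Eif4g2, which codes for a scaffold for cap-independent initiation, was steady (0.14) in 1 of its 3 probe sets, which ranged up to 1.40. Splicing factor genes rose in 29 of 58 cases and fell in 11, and 25 were steady. Under scaling to the hybridization controls 19 of them rose and 11 fell. Snrpb, a core gene of the spliceosomal particles, averaged 1361 ± 143 in blastocysts and 72.0 ± 31.7 in oocytes (log2 difference 4.09), and the SR protein gene Srsf6 rose by 3.26. Crnkl1 and Plrg1, which act in the activated spliceosome, fell by 3.89 and 2.06.

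Proteasome genes rose in 25 of 43 cases and fell in 5, and 16 were steady. Under scaling to the hybridization controls only 16 rose, and 5 fell. The regulatory subunit gene Psmd13 rose by 3.98, the assembly chaperone gene Psmg2 by 3.65 and the catalytic subunit gene Psmb5 by 2.67. The inhibitor gene Psmf1 fell by 2.65 and Psmd10 by 1.62. Psma2, a core subunit gene, was among the steadiest of the bright genes: it had 3894, 4236, 3986 and 3575 on the blastocyst arrays, against 3264, 4175, 3644 and 4290 on the oocyte arrays. The ranges overlapped, and the log2 difference was 0.04 ± 0.14 (95% interval -0.25 to 0.32).

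Respiratory chain and ATP synthase genes rose in 54 of 73 cases and fell in 3, and 19 were steady, with a median of 0.93. Under scaling to the hybridization controls 36 rose, 3 fell and the median was 0.66. Cyc1, the cytochrome c1 gene of complex III, had 2783, 2892, 2978 and 2469 on the blastocyst arrays, against 188, 152, 190 and 199 on the oocyte arrays. The stages were far apart, and Cyc1 rose by 3.85 ± 0.15 (limma adjusted p = 7.57e-18). Uqcrc1 of the same complex rose by 3.58 and the ATP synthase gene Atp5g3 by 3.38. The complex I gene Ndufb11 was one of the 3 that fell (-0.86), and Cox5a of complex IV was both steady and called higher (0.44), with all 3 of its probe sets called higher, up to 0.93, and 1 of them steady. The call of its brightest probe set was lost without oocyte array 1 or 3 or blastocyst array 1 or 2. Against the oocyte the list median was -1.61 in 1-cell, -1.17 in 2-cell and -0.0050 in 8-cell embryos.

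Enzymes of carbon metabolism were divided. Of 44 glycolysis, citrate cycle and pentose phosphate genes, 21 rose, 13 fell and 7 were steady, beside 26.5%, 33.5% and 22.5% of all genes. Ldhb, the lactate dehydrogenase gene of the egg, had 106, 168, 87.7 and 132 on the blastocyst arrays, against 6937, 6844, 5685 and 7301 on the oocyte arrays. All 4 of its probe sets were called lower, and the brightest fell by 5.66 ± 0.22. Pdk3, a kinase that inhibits pyruvate dehydrogenase, fell by 4.08 and the malic enzyme gene Me1 by 1.68. Hexokinase 2, coded by Hk2, averaged 1630 ± 206 in blastocysts and 68.6 ± 21.4 in oocytes and rose by 4.37. The isocitrate dehydrogenase gene Idh2 rose by 4.50 and Pgd, of the pentose phosphate pathway, by 3.85. Sucla2, a subunit gene of succinyl-CoA ligase, was steady at 1866 ± 227 in blastocysts and 1898 ± 258 in oocytes. Cholesterol synthesis genes were divided, with 9 of 21 higher and 7 lower, the latter near the share of all genes. Pmvk, Ebp and Mvk rose by 3.97, 2.64 and 2.09, whereas Fdft1 and Sc5d fell by 3.43 and 3.12, and Scap, which controls the pathway's transcription factors, by 3.36. The median of that list, -0.04, changed sign with quantile normalization (0.01) and with median centring (0.03).

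Of 47 endoplasmic reticulum chaperone and lysosomal genes, 23 rose, 10 fell and 16 were steady, and with the hybridization controls 16 rose and 11 fell. The protease gene Ctsc averaged 2036 ± 368 in blastocysts and 25.05 ± 7.59 in oocytes, a log2 difference of 5.79, after 5159 in 8-cell embryos. The hexosaminidase gene Hexa rose by 5.58 and Psap, which codes for the saposin precursor, by 4.79. The endoplasmic reticulum genes Creld2 and Dnajc3 fell by 2.64 and 1.77, as did the lysosomal protease gene Ctsh named above.

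**Figure D3:**
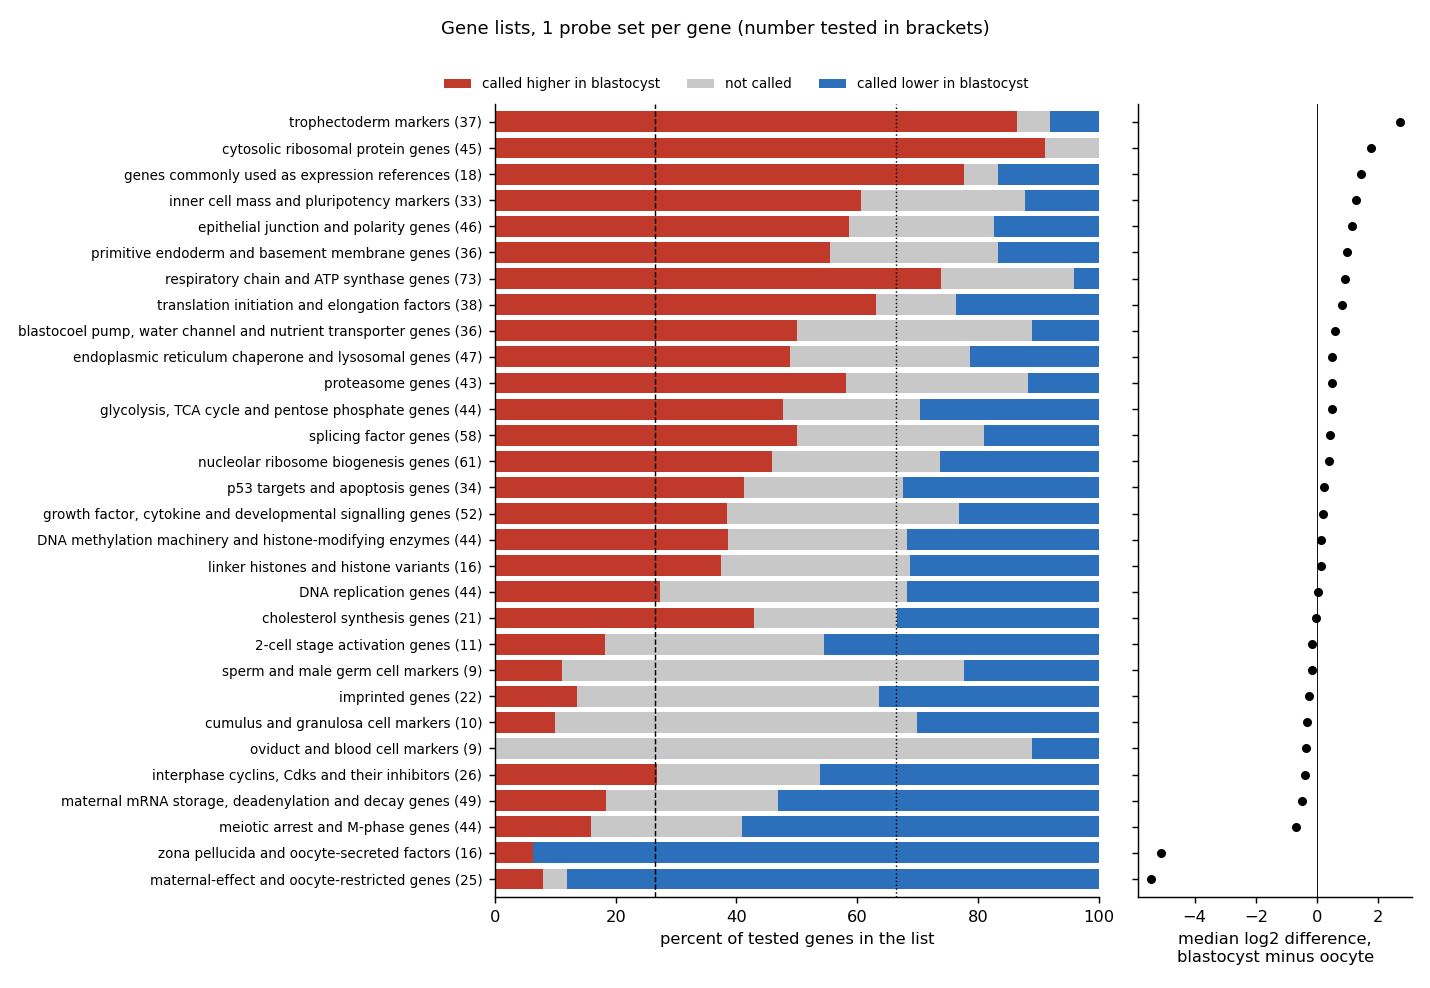
Left, for each gene list, the percent of tested genes called higher in the blastocyst (red), not called (grey) and called lower (blue). The dashed line marks the 26.5% of all 10251 genes called higher, and the dotted line leaves to its right the 33.5% called lower. Right, the median log2 difference of the list. Trophectoderm and ribosomal protein genes stand at the top and the 2 oocyte lists at the bottom.

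DNA replication genes rose and fell in shares near those of all 10251 genes, of which 26.5% were called higher, 33.5% lower and 22.5% steady. Of 44 tested, 12 rose, 14 fell and 19 were steady, and their median of 0.04 was -0.23 with the hybridization controls and was also below 0 without oocyte array 3 or 4, without blastocyst array 3, with 2 other filters and with the 8 arrays fitted alone. Pcna, the sliding clamp gene, had 3010, 2608, 3060 and 2280 on the blastocyst arrays, against 2819, 3071, 3098 and 3505 on the oocyte arrays. The ranges overlapped, and the log2 difference was -0.19 ± 0.17. The licensing gene Cdt1 was steady and lower by a small amount (-0.46). Rfc4, a clamp loader gene, and the ribonucleotide reductase genes Rrm1 and Rrm2 rose by 2.48, 2.40 and 1.91. The origin recognition genes Orc5 (-2.64) and Orc4 (-2.04) fell. Among 26 interphase cyclin, Cdk and inhibitor genes, 7 rose and 12 fell, with a median of -0.39. Cdk4, the kinase of early G1, averaged 543 ± 95.3 in blastocysts and 39.5 ± 10.4 in oocytes and rose by 3.43, while Rb1, the gene of the retinoblastoma protein, averaged 17.8 ± 10.3 in blastocysts and 464 ± 52.4 in oocytes and fell by 4.05. E2f5, a repressive E2F gene, fell by 4.50, Ccng2, an atypical cyclin gene, by 2.51, and E2f6, another repressor, rose by 2.06. Ccna2, the cyclin A2 gene, was steady and called lower (-0.36), while its second probe set was called higher, at 1.01. The lower call was lost without oocyte array 1 or 2 or blastocyst array 2, 3 or 4.

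Steady transcripts were defined by a test and not by a missing difference. The largest absolute log2 difference among the 3716 steady probe sets was 0.68 and the median was 0.22. The brightest steady genes by the naming rule included Hsp90aa1, the inducible cytosolic HSP90 chaperone gene, Hmgn1, which codes for a nucleosome-binding protein, Oaz1, the ornithine decarboxylase antizyme gene, the elongin C gene Eloc, the histone-binding gene Rbbp7, the initiation factor gene Eif3e and the small GTPase gene Arf1. Oaz1 had 4064, 4904, 4813 and 3440 on the blastocyst arrays, against 3988, 3966, 3808 and 4151 on the oocyte arrays. The ranges overlapped, and the log2 difference was 0.10 ± 0.15. Hmgn1 averaged 4814 ± 1001 in blastocysts and 4391 ± 496 in oocytes, and all 3 of its probe sets were steady. For Eloc 1 of 4 probe sets was steady and they ranged from -0.76 to 1.25. Rbbp7 and Eif3e were also called, lower by 0.51 and higher by 0.60. For Rbbp7 1 of 2 probe sets was steady, the other being at -0.84, and for Eif3e 1 of 4, with a range from 0.10 to 0.81. The call for Rbbp7 was lost with median centring, and that for Eif3e with quantile normalization and with the hybridization controls.

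Levels within 2-fold at both ends did not mean a flat course. Of the steady probe sets, 1903 (51.2%) had all 5 stage means within 1 log2 unit, and 1282 (34.5%) departed by more than 1 log2 unit from the mean of the ends at a middle stage, 248 of them by more than 2. The farthest departure was downward for 239 and upward for 110 at the 1-cell stage, downward for 260 and upward for 236 at the 2-cell stage, and downward for 251 and upward for 186 at the 8-cell stage. Upp1, the uridine phosphorylase gene, had a mean of 590 in oocytes, 10.9 in 1-cell, 51.5 in 2-cell and 10.3 in 8-cell embryos, and 627 in blastocysts. It was thus under the filter intensity at 2 of the stages between. The arginine methyltransferase gene Prmt7 took a like course, with 278 in oocytes, 7.35 in 1-cell, 17.4 in 2-cell and 23.3 in 8-cell embryos, and 232 in blastocysts. Rpl35 and the mitochondrial ribosomal gene Mrpl22 were low at the 1-cell stage, at 275 and 92.5. Htra1, a secreted protease gene, and the germ cell gene Morc1 were lowest at the 8-cell stage, at 5.40 and 5.85. The zinc finger gene Zfp707 was the one of these whose farthest departure was upward, to 585 in 2-cell embryos. It had 42.9 ± 11.7 in blastocysts and 33.6 ± 20.4 in oocytes, close to the filter intensity.

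**Figure D4:**
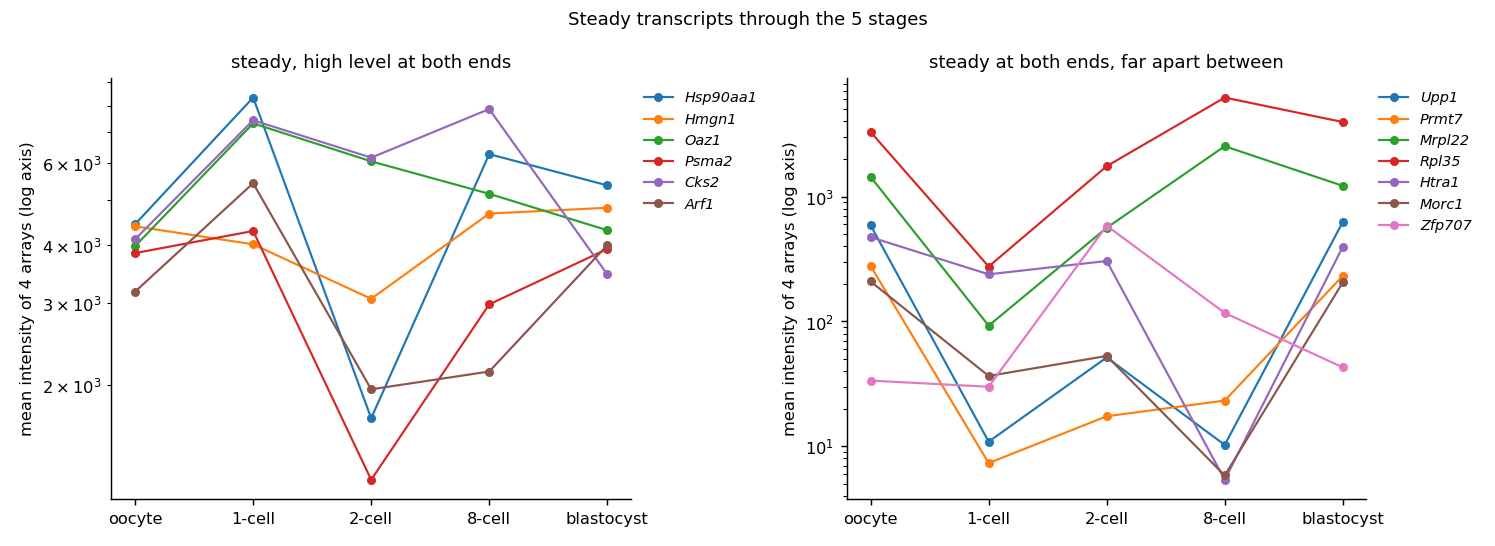
Mean intensity of 4 arrays per stage, on a log axis, from oocyte to blastocyst, for steady genes of high level (left) and for steady genes whose middle stages lie farthest from the ends (right). Upp1, Prmt7 and Htra1 drop to between 5.40 and 10.9 in a middle stage and return by the blastocyst.

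The steady call is the result here that depends most on scaling, through the hybridization controls. With quantile normalization 4139 probe sets were steady and with median centring 3812. Of the 3716 steady in the main setting, these kept 3637 and 3450. With the hybridization controls in place of the trimmed mean, 0 probe sets were steady in limma's adjusted test, while 4624 lay within the bounds at an unadjusted p under 0.05, against 6718 with the trimmed mean. Of the 3716 steady probe sets, 2560 were among the 4624. With bounds of 1.5-fold, 0 were steady and 1841 passed unadjusted.

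Genes commonly used as expression references were mostly not constant. Of 18 tested, 14 were higher in the blastocyst, 3 were lower and 1, Ywhaz, was steady, with a median of 1.45. These counts rest on the brightest probe sets. Calls differed between probe sets for Polr2a (-1.04 to 1.32), Tfrc (0.05 to 2.05), B2m (-0.76 to -0.15) and Ywhaz (-0.26 to 0.58). Actb, the beta-actin gene, had 7998, 9742, 7256 and 6828 on the blastocyst arrays, against 587, 424, 534 and 655 on the oocyte arrays. Every blastocyst array was more than 10 times as bright as any oocyte array, and Actb rose by 3.83 ± 0.19 (limma adjusted p = 1.27e-15). The second probe set of Actb rose by 0.95. The beta-actin control probe sets pointed the same way, with means of 7172 in blastocysts and 623 in oocytes at the 3′ end and 3646 in blastocysts and 130 in oocytes at the 5′ end. Hprt, a purine salvage gene, rose by 2.59, and H2az1, used as a reference in embryo work, by the 3.04 given above. Ipo8, an importin gene, fell by 3.08, Tbp, which codes for the TATA-binding protein, by 1.70, and B2m, the light chain gene of MHC class I, by 0.76. Ywhaz, a 14-3-3 gene, averaged 906 ± 268 in blastocysts and 791 ± 122 in oocytes, but 2337 in 1-cell and 422 in 8-cell embryos.

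**Figure D5:**
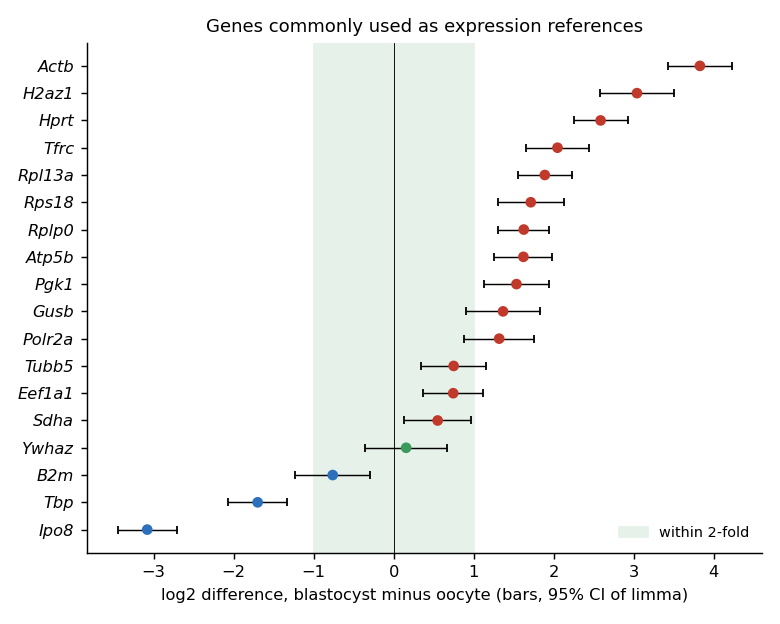
Log2 difference, blastocyst minus oocyte, of 18 commonly used reference genes with the 95% confidence interval of limma. The shaded band marks differences within 2-fold, and colour marks genes called higher (red), lower (blue) or steady (green). Actb lies farthest to the right at 3.83 and Ipo8 farthest to the left at -3.08.

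Among 34 p53 target and apoptosis genes, 14 rose, 11 fell and 6 were steady, beside 26.5%, 33.5% and 22.5% of all genes. Mdm4, an inhibitor of p53, had 29.3, 52.0, 44.2 and 47.1 on the blastocyst arrays, against 2606, 4230, 2761 and 3310 on the oocyte arrays. The groups were far apart, and Mdm4 fell by 5.86 ± 0.18. The initiator caspase gene Casp8 fell by 2.43, while the effector caspase gene Casp6 rose by 3.44, the p53 target Perp by 3.07 and the survival gene Mcl1 by 2.91. Of 52 growth factor and signalling genes, 20 rose, 12 fell and 14 were steady, and the list median of 0.18 was -0.04 with the hybridization controls. Id2, an inhibitor of helix-loop-helix factors, rose by 5.62, and Jag1, a Notch ligand gene, fell by 4.31, in 1 of its 2 probe sets. Of 22 imprinted genes, 3 rose and 8 fell. Xist, the RNA that silences an X chromosome in female embryos, averaged 1308 ± 413 in blastocysts and 86.5 ± 30.3 in oocytes and rose by 3.74. Mest, expressed from the paternal allele in later embryos, fell by 3.17 and Grb10 by 1.26. Of 11 genes known for activation at the 2-cell stage, 2 rose and 5 fell, among them the arginase gene Arg2 (-5.40) and Tcstv1 (-2.81).

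Markers of other cells that could accompany the samples were mostly dim. Of 17 cumulus and granulosa cell markers on the array 10 passed the filter, with 1 higher and 3 lower in the blastocyst. Of 17 sperm and male germ cell markers 9 passed, with 1 higher and 2 lower. Of 15 oviduct and blood cell markers 9 passed, with 0 higher and 1 lower. The sums given next exceed those over 1 probe set per marker, so they include further probe sets. The summed intensity of 17 cumulus and granulosa cell markers ranged from 415 to 766 on blastocyst arrays and from 549 to 908 on oocyte arrays (exact permutation test, two-sided p = 0.0857). For oviduct and blood cell markers it was 328 to 646 on blastocyst arrays and 322 to 618 on oocyte arrays (p = 0.743, exact permutation test). For 17 sperm and male germ cell markers it was 593 to 660 on blastocyst arrays and 1048 to 1657 on oocyte arrays (exact permutation test, p = 0.0286). Most of the difference in that sum lay in Odf2, a gene of sperm tail fibres and of centrosomes, which averaged 248.9 ± 49.6 in blastocysts and 572 ± 87.4 in oocytes, and in Ldhc, at 8.85 ± 6.03 in blastocysts and 140 ± 77.3 in oocytes. The protamine and transition protein genes Prm1, Prm2, Tnp1 and Tnp2 had means of at most 33.2 in either stage. The part of these markers in the differences above was not tested.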

How the data were processed

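Expression was measured in oocytes and 4 later stages on Affymetrix MOE430A arrays, 4 per stage. The deposited values are linear probe-set intensities that the authors scaled to a common trimmed mean. The software, background step and detection calls are not given in the labels or file. Groups were taken from the titles. Gene symbols came from the platform annotation, updated through RefSeq gene IDs (GRCm38.p6): of 22626 probe sets, 20380 had 1 symbol, 691 several and 1555 none, over 12393 genes.

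Intensities were transformed as log2(value + 12.15), the constant being the pooled median of 48.6 divided by 4. Probe sets above 33, the pooled 40th percentile, on at least 4 of 20 arrays were tested. One model of 5 stage means was fitted in R 4.3.3 with limma 3.58.1 (lmFit, eBayes with an intensity trend, Benjamini-Hochberg over all tested). Steady calls used one-sided tests against a log2 difference of 1, one for each direction, and took the larger p. The code was tested on simulated data.

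A gene with several probe sets was represented by its brightest, by mean log2 value on the 8 arrays. In 169 of 3575 such genes, probe sets had opposite calls. Named genes were the 12 largest rises and 12 largest falls, the 12 brightest steady genes, the 8 steady genes with the largest excursions, up to 3 rises, 3 falls and 2 steady members per list, and a set of markers. The comparison, the lists and this rule were chosen with earlier results of these data known. Array measures were compared with an exact permutation test over 70 splits. Alternatives covered scaling, constant, filter, bounds, probe-set choice, model and single arrays. The number of arrays limits the precision.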

Additional observations from a re-analysis of the deposited data

Results flagged for a closer look

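Gap tests over the 4 arrays of a stage were run for 416 groups (192 named genes and the array measures, in each stage). In 27 of them (6.49%) 1 array stood apart from the other 3. Chance flags about 1 in 20 groups. The causes were not tested.

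Among the blastocyst arrays, array 1 stood apart for Oas1c at 13.5 against a median of 2.65, array 2 for Bmp15 at 13.4, for Cdk4 at 399.9 and for Psmg2 at 131.6, and array 3 for Dppa3 at 1664.2, for Fbl at 1874.2 and for Plrg1 at 522.2. Blastocyst array 4 stood apart in the Gapdh control probe sets, with 3115.8 at the 3′ end, 1898.7 in the middle and 887.5 at the 5′ end. For Oas1c and Bmp15 all 4 blastocyst values were under the filter intensity.

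Among the oocyte arrays, array 1 stood apart for Crxos at 1.4, for Cpeb1 at 1179.1, for Psmd13 at 48.6, for Pmvk at 40.5 against a median of 5.45, and for Ldhc at 255 against a median of 106.8. Array 2 stood apart for Orc5 at 3236.1, for Sc5d at 639.4, for Hprt at 909.7, for Ipo8 at 607.9 and in the Gapdh 3′ to 5′ ratio at 2.819. Array 3 stood apart for Yap1 at 3817.9, for Eif1b at 1656 and in the middle Gapdh control at 360.9. Array 4 stood apart for Tfcp2l1 at 12.5, for F11r at 12.6, for Ndufb11 at 4020.6 and for Fdft1 at 3824.6. Each of these genes kept its call in limma when any 1 of the 8 arrays was left out.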

How the results depend on the processing

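Counts of called probe sets moved by less than 1.5 times under other scaling, constants, filters and variance models. Counts within a list could move more: rises of proteasome genes went from 25 to 16 with the hybridization controls. A test against 2-fold called 4161 probe sets (2168 higher, 1993 lower). With 1 probe set per gene, fewer features by construction, 6165 were called (2721 higher, 3444 lower) and 2317 were steady. Steady counts were 2302 with a constant of 3.04, 5958 with one of 48.6, 2212 with a 60th percentile filter, and 0 both with hybridization-control scaling and with 1.5-fold bounds in limma (4624 and 1841 at an unadjusted p under 0.05, against 6718 with the trimmed mean and 2-fold bounds). The cause was not tested. Leaving out 1 array gave 9509 to 10126 called, 4551 to 4758 higher, 4840 to 5484 lower and 2991 to 3331 steady. Same-numbered arrays did not deviate together (r from -0.161 to 0.0416), and a replicate block gave 10199 called and 3718 steady. Alternatives were followed for 192 named genes, of which 167 were called. Of the called genes, 0 changed sign in limma under 22 alternatives. Those that altered only the test, filter or variance model left each difference as it was, so they could not change a sign. In all 22, 142 of the 167 kept their call. Besides the 2-fold test, the calls of Nlrp4c, Sall4, Cdh1, Ctnnb1, Ccna2, Cdt1, Rbbp7, Cox5a, Eif3e and Ets2 were each lost in 1 to 8 alternatives. Medians near 0 changed sign in some settings for the cholesterol, DNA replication, histone-modifying enzyme, linker histone, signalling and 2-cell lists. Signal near the filter intensity limits what can be placed for dim probe sets.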
